A study of Mus musculus with 4 samples.

Results

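The genes described here are 10 components of bone morphogenetic protein (BMP) signalling, read in mouse embryonic stem cells with and without Trim28: the ligands Bmp2 and Bmp4, the type I receptor Bmpr1a, the signal carrier Smad1, the inhibitory Smads Smad6 and Smad7, and the target genes Id1, Id2, Id3 and Id4. They were taken by symbol, each from a probe set annotated to that gene alone, and all 10 of 10 were found among the 18820 genes compared, each with 1 such probe set. Total RNA from 2 wild-type samples (KAP_WT) and 2 Trim28 knockout samples (KAP_KO, labelled KAP1 fl/fl) was hybridised to Affymetrix Mouse Gene ST arrays, with 1 array per sample. Trim28, also called KAP1, is a co-repressor recruited to chromatin by KRAB zinc finger proteins, and the series compares transcript levels before and after its conditional deletion. All 4 samples carry the treatment label 4-OH-tamoxifen, the inducer, while the protocol names 24 h of inducer or ethanol vehicle followed by 48 h without it. The sources used here do not say whether the wild-type cells are the floxed line before deletion or another line, nor how many clones were used. Any difference between lines therefore cannot be told apart from the deletion. The same holds for exposure to the inducer, if the wild-type samples received vehicle. Cells of both groups grew on irradiated mouse embryonic fibroblasts.

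BMPs are secreted ligands that bind paired type I and type II receptor kinases. The type I receptor phosphorylates Smad1, Smad5 or Smad9, which join Smad4 and enter the nucleus to switch on targets such as the Id genes. Id proteins have a helix-loop-helix domain but no basic region, so they pair with E proteins and other bHLH factors and keep them off DNA. In mouse embryonic stem cells BMP4 together with LIF supports self-renewal, in part through Id proteins, while Smad6 and Smad7 are induced by the pathway and damp it.

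The targeted gene and the stem cell markers bear on how the samples are labelled. Trim28 read 11.29 and 11.37 in wild-type cells against 8.97 and 8.92 in knockout cells (log2 expression). Pou5f1, Nanog and Sox2 lay between 10.65 and 11.33 on the wild-type arrays and between 9.69 and 10.86 on the knockout arrays. All 3 were lower in the knockout, with log2 changes of -0.49, -0.42 and -0.85 (limma adjusted p = 0.00909, 0.0335 and 0.00678). These calls were lost when wild-type replicate 1 was dropped (0.0534, 0.0689 and 0.0771) or replicate 2 (0.0683, 0.176 and 0.0551), and that of Nanog also when knockout replicate 2 was (0.141). With the replicate block Nanog missed the threshold too (limma adjusted p = 0.0511). Arrays of 1 group correlated at 0.994 and 0.995 over all probe sets and arrays of different groups at 0.974 to 0.976. Values are log2 expression as deposited. With 2 arrays per group their number limits the precision. The samples are labelled biological replicates, but nothing says whether they came from separate cultures, so the p-values measure only the spread between these samples. In bulk RNA a change in the share of cells that express a gene and a change per cell cannot be told apart.

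Id3 was the member of the Id family that rose, by 2.81-fold. It measured 6.13 and 5.98 in wild-type cells against 7.72 and 7.37 in knockout cells. Both knockout samples were thus above both wild-type samples, and the means were 6.06 ± 0.10 and 7.54 ± 0.25 (SD, n = 2 each). The log2 change was 1.49 (SE 0.14, 95% interval 1.16 to 1.81, limma adjusted p = 0.000533). Its size was 1.31 to 1.66 with any 1 sample left out, and it passed the threshold in all 13 alternatives (adjusted p = 0.000152 to 0.0198). Among these, a threshold of 0.1 could not lose the call. The other probe set rules left the values of Id3 unchanged, since it has 1 probe set.

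Id1, the family member most often read as a marker of BMP activity, did not pass the test. Its levels were 7.55 and 7.96 in wild-type cells against 8.33 and 7.78 in knockout cells. The groups overlapped, because the second knockout sample lay below the second wild-type sample. The log2 change of 0.30 (95% interval -0.20 to 0.79, limma adjusted p = 0.348) leaves room for a rise of up to 1.73-fold. It depended on single samples, at 0.021 without knockout replicate 1 and 0.58 without knockout replicate 2.

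Id2 read 9.29 and 9.04 in wild-type cells against 9.12 and 8.73 in knockout cells. Id4 read 5.90 and 5.60 in wild-type cells against 5.71 and 5.29 in knockout cells. In both genes the groups overlapped, and the knockout mean was the lower one. The log2 changes were -0.24 for Id2 (95% interval -0.61 to 0.13, limma adjusted p = 0.306) and -0.25 for Id4 (95% interval -0.65 to 0.15, limma adjusted p = 0.332). Neither passed the threshold in any of the 13 alternatives. The lowest adjusted p among these was 0.0564 for Id2 and 0.0673 for Id4, both with array medians subtracted.

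The change of Id3 exceeded that of Id1 by 1.19, that of Id2 by 1.73 and that of Id4 by 1.74 on the log2 scale. Within groups these differences between 2 genes varied with an SD of 0.29, 0.055 and 0.086. Id3 was set against the others after its values were seen, so these differences are a description and carry no test.

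The upstream sequences of the 3 Id genes that matched a RefSeq window are shown, to let the paralogs be compared. They are the 250 bases before the annotated start, from RefSeq on build GRCm38.p6, 5′ to 3′ on the gene's strand, with GGCGCC in capitals, a GC-rich element bound by BMP Smads. Id3 lies at chr4:136143572-136143821 (plus strand), Id2 at chr12:25096093-25096342 (minus strand) and Id4 at chr13:48260866-48261115 (plus strand).
Id3: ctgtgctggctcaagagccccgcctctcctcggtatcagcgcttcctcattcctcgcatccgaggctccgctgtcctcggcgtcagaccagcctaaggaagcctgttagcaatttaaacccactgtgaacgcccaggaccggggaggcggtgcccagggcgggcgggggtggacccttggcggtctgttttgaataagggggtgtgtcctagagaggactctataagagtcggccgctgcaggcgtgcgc
Id2: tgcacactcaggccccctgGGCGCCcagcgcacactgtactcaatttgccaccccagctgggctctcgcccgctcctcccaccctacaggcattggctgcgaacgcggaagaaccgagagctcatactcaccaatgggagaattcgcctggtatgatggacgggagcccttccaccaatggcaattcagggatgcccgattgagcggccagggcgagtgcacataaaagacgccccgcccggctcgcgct
Id4: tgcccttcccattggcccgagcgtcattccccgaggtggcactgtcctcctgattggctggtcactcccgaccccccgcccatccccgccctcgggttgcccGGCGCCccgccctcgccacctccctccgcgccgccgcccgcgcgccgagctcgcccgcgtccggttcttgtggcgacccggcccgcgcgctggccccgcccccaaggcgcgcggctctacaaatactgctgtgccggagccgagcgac

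GGCGCC, which reads the same on both strands, was found 1 time in the Id2 window, 231 bases before the start, and 1 time in the Id4 window, 148 bases before it. The Id3 window held 0 matches. Among the other members searched, Bmpr1a held 1 match, 198 bases before its start, and Bmp4, Smad1 and Smad6 held 0. Genes that did not pass the test were thus found with and without it. Smad7 was left out of the search, and Id1 and Bmp2 had no window. Id3 was therefore the only gene past the threshold that was searched. Of 32841 RefSeq promoter windows of the same length, 9.59% held at least 1 match. GTCT, the shorter Smad4-type element, was counted on both strands and occurred 2 times upstream of Id3, 1 time upstream of Id2 and 0 times upstream of Id4, and 82.9% of all windows held it. GGCGCC followed after 5 bases by GTCT, in either orientation, was in none of the 7 members' windows searched and in 0.07% of all windows. The GC content was 62.8% for Id3, 62.8% for Id2 and 75.6% for Id4, against a median of 52.4% over all windows. These counts describe letters in a short window and not sites of binding.

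The ligand Bmp2 had the largest change of the 10 genes and Bmp4 the smallest. Bmp2 read 3.42 and 3.35 in wild-type cells against 5.13 and 5.81 in knockout cells. Both knockout samples stood far above the wild-type pair, at 5.47 ± 0.49 against 3.38 ± 0.049 (SD, n = 2 each). The log2 change was 2.08 (SE 0.21, 95% interval 1.59 to 2.58, limma adjusted p = 0.000739), or 4.24-fold. With 1 sample left out at a time it ranged from 1.74 to 2.43. Only 16.7% of the genes compared had a lower wild-type value than Bmp2, and signal over background is not known there, so the fold holds for array values only.

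Bmp4, the ligand used to support stem cell self-renewal, read 7.25 and 7.29 in wild-type cells against 7.36 and 7.16 in knockout cells. The wild-type values lay between the knockout values. The log2 change was -0.0093 (95% interval -0.26 to 0.24, limma adjusted p = 0.962). The knockout level was thus 99.4% of the wild-type level, with a 95% interval of 83.6 to 118%. The 2 changes lay 2.09 apart (within-group SD 0.45), with no test, since the pair was formed after the values were seen.

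**Figure D1:**
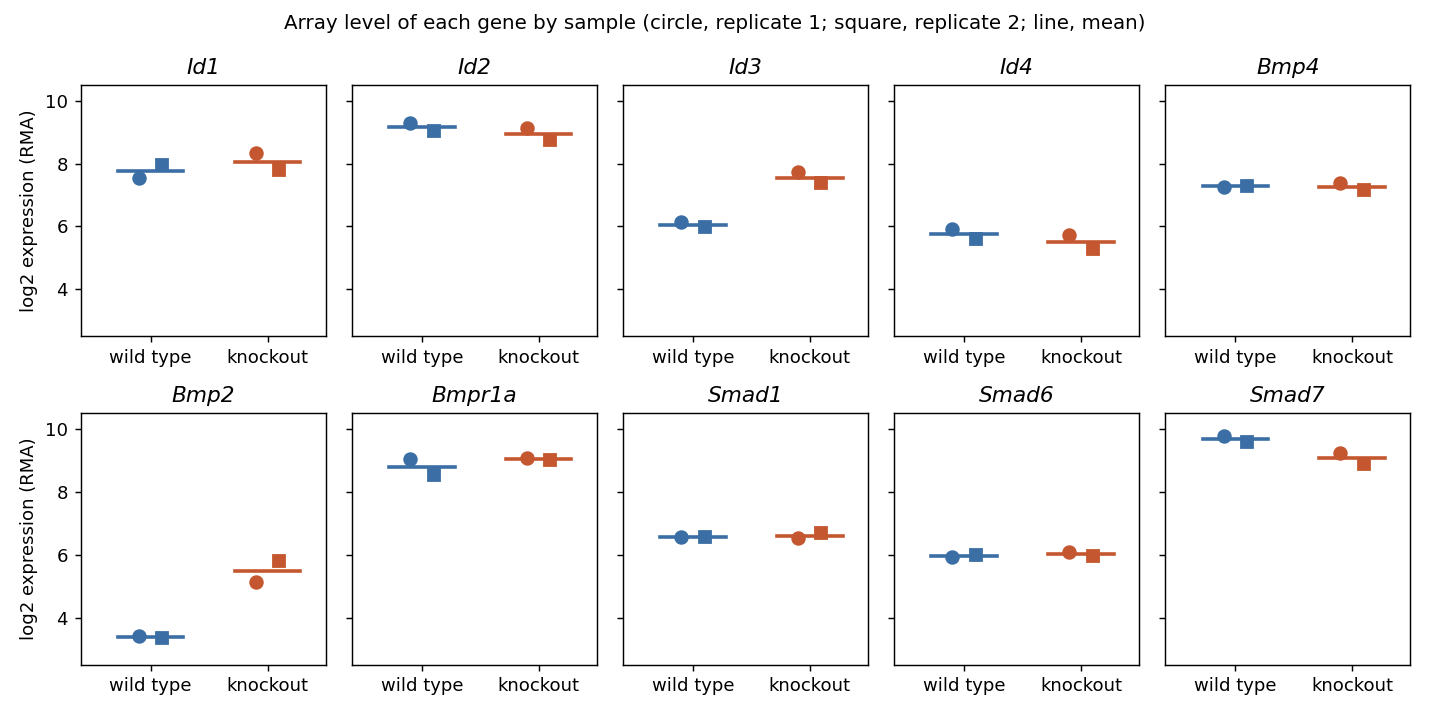
Log2 expression of the 10 genes (y axis) in the wild-type (blue) and knockout (red) samples, with circles for replicate 1, squares for replicate 2 and lines for the group means. Id3 and Bmp2 are higher in both knockout samples and Smad7 is lower in both, while the groups of the other 7 genes overlap.

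Bmpr1a, which encodes a type I BMP receptor, read 9.05 and 8.55 in wild-type cells against 9.08 and 9.01 in knockout cells. The wild-type samples differed from each other by 0.51, more than the group means did, and the first of them was level with the knockout. The log2 change was 0.24 (95% interval -0.15 to 0.64, limma adjusted p = 0.332). Dropping wild-type replicate 1 gave 0.50, and dropping wild-type replicate 2 gave -0.0082.

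Smad1, the carrier of the signal to the nucleus, read 6.56 and 6.55 in wild-type cells against 6.52 and 6.69 in knockout cells. Its log2 change was 0.051 (95% interval -0.19 to 0.29, limma adjusted p = 0.759). The wild-type pair lay inside the range of the knockout pair.

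Of the inhibitory Smads, Smad7 passed the test and Smad6 did not. Smad7, which blocks the receptors and recruits ubiquitin ligases to them, read 9.79 and 9.57 in wild-type cells against 9.23 and 8.89 in knockout cells. Both knockout samples were lower, with means of 9.68 ± 0.15 and 9.06 ± 0.24 (SD, n = 2 each). Smad7 fell by 0.62 on the log2 scale (SE 0.14, 95% interval -0.95 to -0.28, limma adjusted p = 0.0189), to 65.3% of the wild-type level. The call was lost when any of 3 samples was dropped: wild-type replicate 1 (-0.51, adjusted p = 0.138), wild-type replicate 2 (-0.72, adjusted p = 0.0687) or knockout replicate 2 (-0.45, adjusted p = 0.0651).

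Smad6, the other inhibitory Smad, which acts mainly on BMP receptors and on Smad1, read 5.93 and 5.98 in wild-type cells against 6.07 and 5.96 in knockout cells. The groups overlapped, and the log2 change was 0.062 (95% interval -0.16 to 0.29, limma adjusted p = 0.686). Smad7 minus Smad6 gave -0.68 (within-group SD 0.17), and whether the 2 changes differ was not tested.

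In all, 2 of the 10 genes rose, 1 fell and 7 did not pass, while 26.9% of all genes compared passed, 14.2% as higher and 12.7% as lower. On the values as deposited, the share of the 10 genes that passed was therefore near that of all genes. Their groups did not overlap in 3 of 10 cases, against 65.2% of all genes. The median change was 0.056 over the 10 genes and -0.053 over all genes. With array medians subtracted every change moves down by the same amount, the median of all genes becomes -0.22, that of the 10 genes -0.11, and the counts of 2 and 1 hold. After a second quantile normalization these counts were also 2 and 1. With that or array medians subtracted, the small changes of Smad1 and Smad6 turned negative. Of all 18820 genes, 2065 were higher and 6392 lower with array medians subtracted. Over all genes 5071 passed with all samples, 2647 when wild-type replicate 1 was dropped and 2430 when replicate 2 was.

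**Figure D2:**
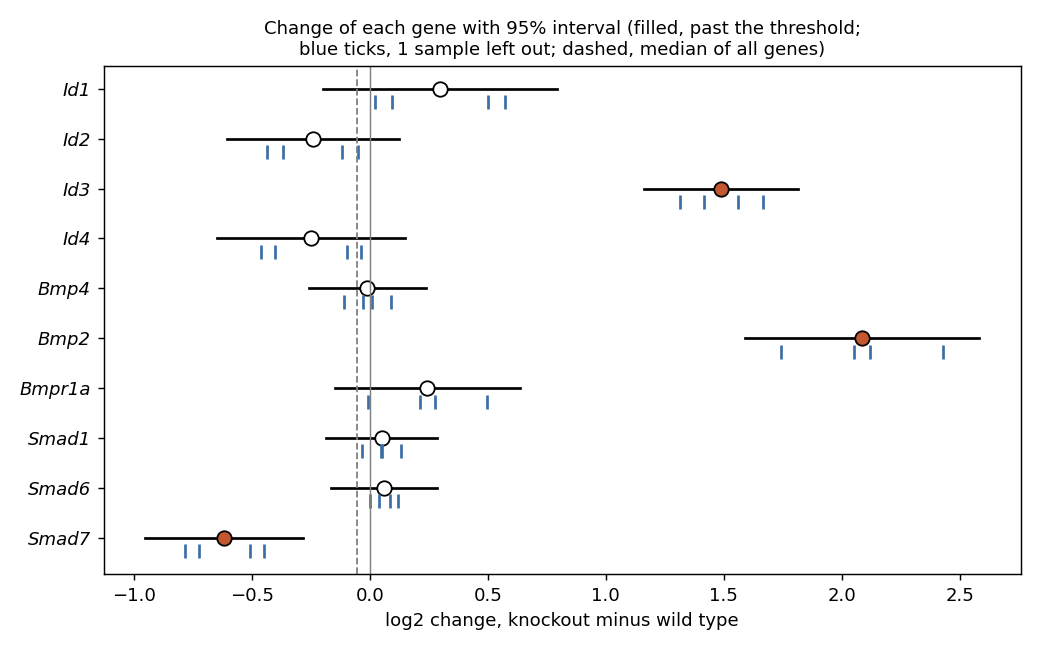
Log2 change (knockout minus wild type, x axis) of the 10 genes with 95% intervals from limma, filled where the adjusted p passed 0.05, with blue ticks for the change when 1 of the 4 samples is left out. The intervals of Id3 and Bmp2 start at 1.16 and 1.59, that of Smad7 ends at -0.28, and the other 7 cross 0.

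Markers of other cell types moved between the samples in which Id3 and Bmp2 rose. Past the threshold, 14.2% of all genes compared rose and 12.7% fell. On median-subtracted arrays 2065 of the 18820 genes rose and 6392 fell, and after a second quantile normalization 2499 rose and 2855 fell. Of 20 fibroblast markers, which feeder cells share, 14 rose and 0 fell (12 and 0 on median-subtracted arrays), and their summed level on the linear scale was 813 and 704 in wild-type cells against 1590 and 1531 in knockout cells. Dcn, Col1a1, Pdgfrb and Postn rose by 2.64, 1.78, 1.58 and 1.29, and Col1a2 by 1.23. Dcn and Postn were dim in wild-type cells, with means of 3.40 and 3.60. Trophoblast markers rose in 6 of 12 cases and fell in 1 (Tfap2c, -0.81, named after its values were seen; adjusted p = 0.0527 and 0.0567 without wild-type replicates 1 and 2). Both rescalings gave 6 rises and 3 falls. Krt8, Krt18, Krt7 and Cdx2 rose by 3.56, 3.36, 2.00 and 1.03. The summed level of the list was 1206 and 1268 against 4861 and 5700 and is carried mainly by the keratins Krt8 and Krt18, which other epithelia share. Elf5, Eomes, Ascl2 and Tead4, named after their values were seen, did not pass, with changes of -0.16, 0.019, -0.29 and -0.33. Endoderm markers rose in 6 of 12 cases with 0 falls (6 and 1 under both rescalings), led by Gata4 (1.47) and Dab2 (1.39). Their sums were 613 and 616 against 1079 and 1118. The 6 rises include Pdgfra, which is also among the fibroblast markers. Gata6 differed by 0.26 (limma adjusted p = 0.102). Afp, Ttr, Hnf4a, Sox7 and Amn, named after their values were seen, did not pass either. Their changes were -0.082, -0.17, -0.29, 0.047 and 0.34. Of 9 streak and mesoderm markers 4 rose and 0 fell, led by Wnt3 (3.05). The counts were 3 and 0 after quantile normalization and 2 and 1 on median-subtracted arrays. The streak marker T was listed too but was not matched to any gene compared. The calls of Kdr (0.67), Msgn1 (0.49) and Foxf1 (0.59) were each lost when at least 1 sample was dropped, with adjusted p of up to 0.253, 0.146 and 0.0734. The sums were 184 and 188 against 298 and 420, and Mesp1 read 3.62 to 3.72 on all 4 arrays. Mixl1, Evx1, Tbx6 and Hand2, named after their values were seen, did not pass, with changes of 0.61, 0.066, -0.17 and -0.0087. Of 16 stem cell markers 11 fell and 0 rose (13 and 0 on median-subtracted arrays), led by Nr0b1 (-2.62) and Tbx3 (-2.16), with sums of 23544 and 23229 against 17443 and 15112. The part of other cell types in the changes of the pathway genes was not tested.

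The 2 samples of a group differed more for several of these genes than for most genes. In the knockout, replicate 2 read lower than replicate 1 for all 4 Id genes, by 0.55 for Id1, 0.39 for Id2, 0.35 for Id3 and 0.42 for Id4. Smad7 was lower there too, by 0.34, and Bmp2 was higher by 0.69. The median gap between the knockout samples over all genes was 0.11, and between 92.2% (Smad7) and 99.4% (Bmp2) of all genes had a smaller gap than these 6. For Id1, Id2 and Id4 the gap between knockout samples was larger than the change between groups. In the wild type the Id genes did not share a direction, since Id1 was higher by 0.40 in replicate 2 and Id2, Id3 and Id4 were lower by 0.25, 0.15 and 0.30.

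The change of each gene was also set beside those of 50 neighbours on its chromosome. These were the 25 nearest genes of at least median level on each side, at whatever distance. For Id3 on chromosome 4 the median of these neighbours was -0.11 and for Bmp2 on chromosome 2 it was -0.0059, so that both stood 1.60 and 2.09 above their surroundings. Smad7 stood 0.45 below a neighbour median of -0.16, of which 5 of 50 were higher and 13 lower past the threshold. Bmp4 and Bmpr1a lie on chromosome 14 among genes that were higher in the knockout. There 28 of the 50 neighbours of Bmp4 and 24 of those of Bmpr1a had risen, with medians of 0.44 and 0.25, and 36 neighbours are common to both. Relative to these medians Bmp4 stood at -0.45 and Bmpr1a at -0.00062. The medians around Id1, Id2, Id4, Smad1 and Smad6 lay between -0.089 and 0.0050. No test was run on these differences.

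**Figure D3:**
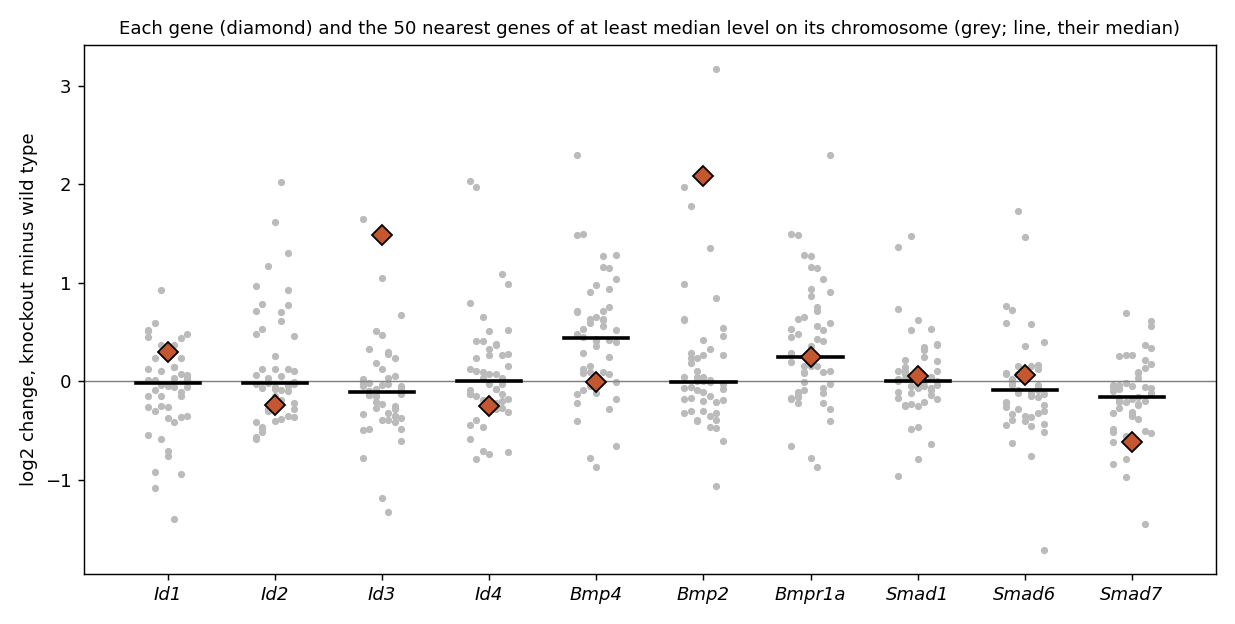
Log2 change (knockout minus wild type, y axis) of each of the 10 genes (red diamonds) and of its 50 neighbours (grey points). Neighbours are the 25 nearest genes of at least median level on each side, and black lines are their medians. Id3 and Bmp2 stand 1.60 and 2.09 above their neighbour medians, and Bmp4 stands 0.45 below a median of 0.44.

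Beyond these 10 genes, 78 of 84 listed components, regulators, partners and targets of the pathway were measured. Of these 23 rose and 7 fell, and 48 did not pass. Of all genes 26.9% passed, 14.2% as higher and 12.7% as lower. These shares are not repeated below and are to be read beside each count by role. The median change was 0.086. On median-subtracted arrays the split was 15 higher and 15 lower, while 2065 of all 18820 genes were higher and 6392 lower. These totals are likewise to be read beside the median-subtracted counts by role below. Leaving out wild-type replicate 1 gave 19 calls with 3 falls, and leaving out wild-type replicate 2 gave 14 calls with 13 rises and 1 fall. Without knockout replicate 2 there were 3 falls.

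Among 12 other BMP-class ligands 4 rose and 1 fell, the latter being Gdf5 (-0.30, limma adjusted p = 0.0451), which was picked out after its values were seen. On median-subtracted arrays the counts were 2 and 1. Gdf5 missed the threshold with the replicate block (limma adjusted p = 0.0599). The call of Gdf5 was lost whichever sample was dropped (adjusted p = 0.129 and 0.157 for wild-type replicates 1 and 2, 0.117 and 0.155 for knockout replicates 1 and 2), with the intensity trend (0.0526) and with the mean of its probe sets (0.122). Bmp8b rose from 5.15 ± 0.21 to 6.63 ± 0.35 (SD, n = 2 each), a log2 change of 1.48 (limma adjusted p = 0.00160). Bmp6 read 5.55 and 5.49 in wild-type cells against 6.16 and 6.27 in knockout cells, and rose by 0.69 (adjusted p = 0.00241). Bmp8a rose by 0.48 and Gdf6 by 0.41. Both lost their calls with array medians subtracted (adjusted p = 0.0899 and 0.111), Bmp8a also after quantile normalization (0.0635). For Bmp8a the adjusted p was 0.197 and 0.0915 when wild-type replicates 1 and 2 were dropped, and 0.145 when knockout replicate 2 was. Gdf6 reached 0.0561 and 0.147 without wild-type replicates 1 and 2, and 0.0505 and 0.110 without knockout replicates 1 and 2. Bmp8a and Bmp8b are paralogs on chromosome 4. Their probe sets are each annotated to 1 gene and gave different changes, but whether they tell the 2 genes apart was not tested.

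Of 10 other receptors and co-receptors 4 rose and 1 fell; on median-subtracted arrays the counts were 2 and 2. The co-receptor Rgmb read 6.25 and 6.26 in wild-type cells against 6.97 and 7.08 in knockout cells, and rose by 0.77 (limma adjusted p = 0.00148). The type I receptor Acvr1 rose by 0.56 and the type II receptor Bmpr2 by 0.46, and Bmpr1b, named after its values were seen, by 0.44 (adjusted p = 0.0194), while Hjv, a co-receptor known from iron control in the liver, fell by 0.59. Acvr1 lost its call without wild-type replicate 2 (adjusted p = 0.0596). Bmpr2 lost it with array medians subtracted (0.0787), without wild-type replicates 1 and 2 (0.0676 and 0.138) and without knockout replicate 2 (0.101). Hjv lost it without the same 3 samples (0.213, 0.131 and 0.116). Bmpr1b lost it with array medians subtracted (0.0600) and when the first replicate of either group was dropped (0.108 for wild type, 0.0643 for knockout). The other Smads of the pathway, Smad4, Smad5 and Smad9, gave 0 calls of 3 in limma and 0 at an unadjusted p under 0.05, with changes from 0.0050 to 0.092.

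Extracellular antagonists and modulators gave 4 rises and 0 falls among 15 measured, and 4 and 1 on median-subtracted arrays. Bmp1 is named as a BMP but encodes a protease that cleaves procollagen and the BMP antagonist chordin. It read 5.81 and 5.66 in wild-type cells against 8.99 and 9.48 in knockout cells, a rise of 3.50 (SE 0.16, limma adjusted p = 6.03e-05). Bmp1 also lies on chromosome 14, where the median of its 50 neighbours was 0.42, so that it stood 3.08 above them. Bambi, a decoy receptor without a kinase, rose by 1.00 (adjusted p = 0.00287), the ligand trap Nog (noggin) by 0.82 (adjusted p = 0.00187) and the ligand trap Nbl1 by 0.58. The call of Nbl1 was lost without wild-type replicate 2 (adjusted p = 0.0516).

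Intracellular regulators went both ways: 4 of 16 were higher and 3 lower past the threshold, which became 2 and 5 on median-subtracted arrays. Zeb2, a repressor that binds Smads, read 4.42 and 4.50 in wild-type cells against 5.95 and 6.20 in knockout cells, and rose by 1.61 (limma adjusted p = 0.000202). The zinc finger gene Hivep2 read 3.27 and 3.25 in wild-type cells against 4.39 and 4.24 in knockout cells, and rose by 1.06 (adjusted p = 0.000541). Only 14.1% of the genes compared had a lower wild-type value than Hivep2, so its fold holds for array values only. Pmepa1, a TGF-beta-induced inhibitor of Smad signalling, fell by 0.68 and the antiproliferative gene Tob1 by 0.59. Without wild-type replicate 2 both missed the threshold (adjusted p = 0.0507 and 0.0787).

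Of 11 other reported BMP targets 4 rose and 0 fell; on median-subtracted arrays the counts were 2 and 2, and after quantile normalization 2 and 0. The transcription factor gene Gata2 went from 5.04 ± 0.052 to 6.49 ± 0.0033 (SD, n = 2 each), a rise of 1.45 (limma adjusted p = 0.000130). The homeobox gene Msx2 rose by 0.99 but missed the threshold when either wild-type sample was dropped (adjusted p = 0.0506 for replicate 1 and 0.0887 for replicate 2). Dlx3 and Nkx2-5 rose by 0.50 and 0.38. Both lost their calls after quantile normalization (adjusted p = 0.142 and 0.150) and with array medians subtracted (0.0911 and 0.109). Dlx3 also lost it without wild-type replicates 1 and 2 and knockout replicate 2 (0.224, 0.0797 and 0.160), as did Nkx2-5 (0.103, 0.101 and 0.107). Dusp9, a phosphatase gene induced by BMP4 in embryonic stem cells, was chosen after its values were seen: it read 10.22 and 10.46 in wild-type cells against 10.31 and 10.36 in knockout cells.

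Among 11 bHLH partners and rivals of the Id proteins 3 rose and 2 fell; on median-subtracted arrays the counts were 3 and 4. The E protein genes Tcf12 and Tcf4, whose products Id proteins bind, rose by 0.74 (limma adjusted p = 0.00155) and 0.69 (adjusted p = 0.00419). Tcf3, the other E protein gene listed, differed by 0.045 (adjusted p = 0.801) and was named after its values were seen. The trophoblast and mesoderm factor gene Hand1 rose by 0.98, and the neurogenic factor gene Neurod1 fell by 1.49 (adjusted p = 0.000260). Max, the partner gene of Myc, was the other that fell, by 0.35 (adjusted p = 0.0413), and was picked out after its values were seen. With the replicate block Max missed the threshold (adjusted p = 0.0531). Its call was lost after quantile normalization (0.0502) and whichever sample was dropped (0.181 and 0.0743 for wild-type replicates 1 and 2, 0.127 and 0.101 for knockout replicates 1 and 2).

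**Figure D4:**
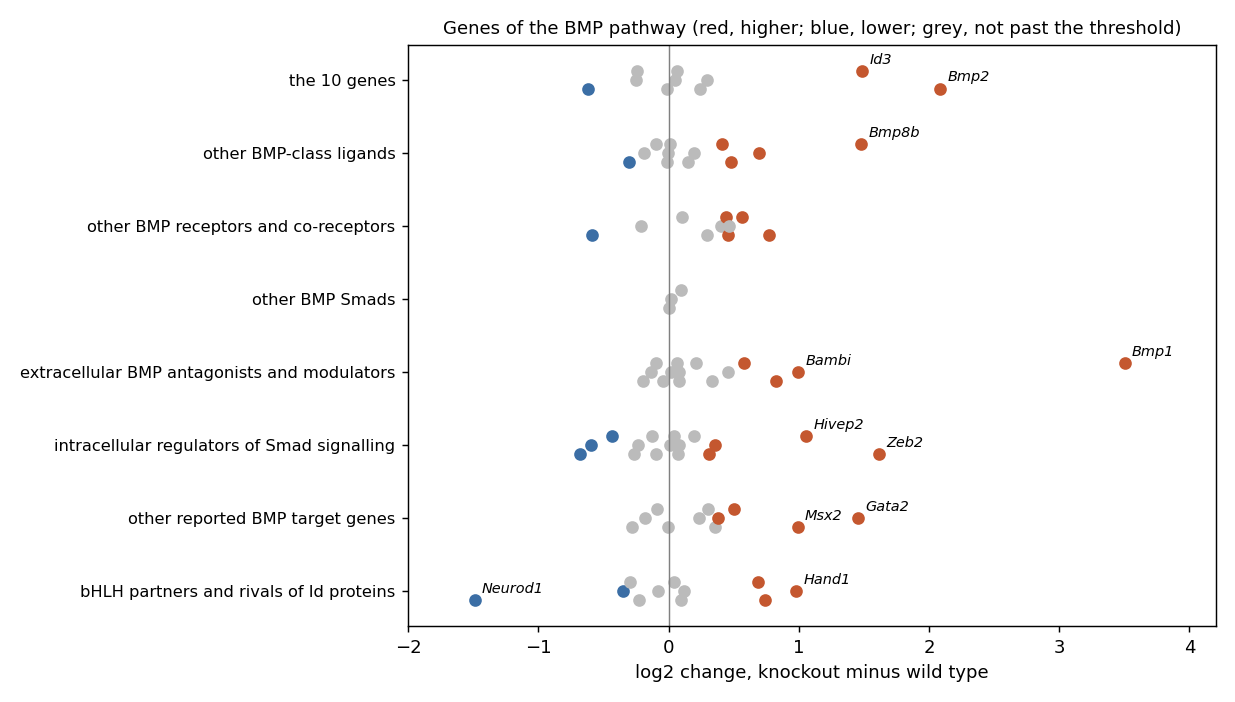
Log2 change (knockout minus wild type, x axis) of the 10 genes and of 78 other pathway genes by role (rows), with 1 point per gene, red where higher and blue where lower past an adjusted p of 0.05. Bmp1 at 3.50 lies farthest to the right and Neurod1 at -1.49 farthest to the left, and the 3 other Smads lie near 0.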

How the data were processed

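Log2 expression was deposited by the authors for 4 samples and 35556 probe sets; affy and the RMA method are listed per the submitters' processing notes, and their versions, settings and the build are not given in the sources used here. No further normalization was applied. Of the probe sets, 21218 carry 1 gene symbol in the platform annotation, and the one with the highest mean per gene was kept (18820 genes, no filter on low levels). The groups were compared with limma (version 3.58.1, R version 4.3.3; lmFit and eBayes, unpaired, two-sided, 2 residual and 4.70 prior degrees of freedom). P-values were adjusted over all genes by Benjamini-Hochberg, threshold 0.05. The script was tested on simulated data; the spread assumed in that simulation and its pass limits were revised after its first 3 runs had missed the limits set for them, so the pass is no independent check of power. Members and lists were chosen with earlier results of these data known, and the promoter motifs after the files were read. All members were named, and from each pathway or marker list up to 4 genes with the largest change past the threshold, besides a few fixed checks; some genes that this rule names in marker lists are given by count only. RefSeq (GRCm38.p6) gave gene order, and promoter windows were searched for 7 of the 10 members. Id1 and Bmp2 had no window in the sources used here, and Smad7, on chromosome 18, was left out of the search. The alternatives were a replicate block, other variance priors, filters on low genes, rescaling, other probe set rules, an adjusted p under 0.1, neighbour medians and each sample left out.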

Additional observations from a re-analysis of the deposited data

How the results depend on the processing

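The rises of Id3 and Bmp2 kept their direction and passed the threshold under every alternative in which the gene was tested; Bmp2 lies below the median level, so that 1 of the 10 genes rose when genes below that level were left out, and 14 of the other pathway genes did. The fall of Smad7 kept its direction in all alternatives. An adjusted p under 0.1 cannot lose a call made at 0.05. All 10 genes have 1 probe set, so the other probe set rules left their values unchanged. With 1 sample left out, 0 to 1 of the 10 genes fell and 14 to 27 other pathway genes passed, 13 to 22 higher and 1 to 5 lower. Over all genes 2430 to 4350 passed then, 1531 to 2405 higher and 899 to 1945 lower; the samples left out change the spread estimate and the degrees of freedom together. With array medians subtracted 8457 genes passed, 6392 of them lower, and the other pathway genes split 15 higher and 15 lower. Replicate numbers shared by the groups do not show a pairing in the labels: the deviations from the group means of same-numbered samples correlated at 0.15 over genes, with only 2 pairs. With the replicate block 5093 genes passed, against 5071 without, and 3 of the 10 genes. Of the named genes, Gdf5, Kdr, Max and Nanog lost their calls with it (limma adjusted p = 0.0599, 0.0616, 0.0531 and 0.0511). The count of other pathway genes that fell went from 7 to 5. Signal over background is unknown, which limits Bmp2 and other dim genes most. Among these are Hivep2, Dcn, Gdf6 and Bmpr1b, with wild-type means of 3.26, 3.40, 3.38 and 3.58.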
